A study of Homo sapiens with 8 samples.

Results

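The aminoacyl-tRNA synthetases described here are 38 genes, chosen by name from the 78932 genes of the count table: 19 cytosolic enzymes, 16 mitochondrial enzymes and 3 scaffold proteins. All 38 had enough counts to be among the 24289 genes tested, and the lowest count of any of them in any library was 70 (PARS2). Synthetases join each amino acid to the tRNAs that carry its codons' anticodons, and the charged tRNAs are what ribosomes read. Mitochondria use a set of enzymes of their own, which is encoded in the nucleus, translated in the cytosol and imported; GARS1 and KARS1 serve both compartments from a shared gene. Several cytosolic enzymes sit in a multisynthetase complex held together by the scaffold proteins AIMP1, AIMP2 and EEF1E1, and the transcription factor ATF4 is known to switch on many cytosolic synthetase genes when amino acids run short.

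By its labels, the RNA came from sucrose gradients of 2 human leukaemia lines, Molm13 and U937. Molm13 is an acute myeloid line with a KMT2A rearrangement, and U937 is of monocytic character. For each line there was a control gradient and a gradient of cells carrying a lentiviral vector meant to overexpress OGFOD1 (OE), a prolyl hydroxylase of the ribosomal protein RPS23, and the question was how this changes the RNA that is translated. Each gradient gave a light pool (free ribonucleoproteins, monosomes and disomes) and a heavy pool (3 or more ribosomes per mRNA), so that 8 libraries form 4 groups of n = 2, with 1 library per line label. All cells were given cycloheximide, which holds ribosomes on their mRNA. The library names of the controls hold the letters Scr, which the labels do not spell out. What vector, if any, the control cells carried is not stated further.

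Total counts ranged from 25741930 to 89373133 per library. OE libraries had less OGFOD1 mRNA than controls (log2 fold change -1.60, SE 0.30, adjusted p = 0.0178), so every OE difference below goes by a label that the targeted gene contradicts. Between the line labels 0 of 24289 genes passed edgeR's quasi-likelihood test (1375 higher and 1487 lower at an unadjusted p under 0.05). DESeq2 called 305 genes there, limma voom 1, the fit with no filter on low counts 412, and refits without 1 library 0 to 131. No gene was above 5 CPM (read counts scaled to a common library total, with TMM factors) under one line label and below 0.1 CPM under the other. Whether the line labels mark distinct cell lines was not tested, so like values under both labels need not be those of distinct lines. Summed myeloid markers were at 718 to 1780 CPM, with 1 of 10, ANPEP, below 1 CPM in every library. All 4 erythroid and all 4 fibroblast markers, 3 of 4 epithelial, 3 of 4 T cell and 2 of 4 B cell markers stayed below 1 CPM; the sum of the T cell list ran from 1.4 to 120 CPM, nearly all of it CD3D. The Molm13 control light library stood apart, with mitochondrial ribosomal RNA MT-RNR2 at 0.646% of its counts against 11.2% to 12.8% in the other 3 light libraries and 0.0622% to 0.243% in the heavy ones. Medians of the cytosolic and mitochondrial classes in each fitted comparison are given with and without it, and so are counts of calls in some comparisons.

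Levels per kilobase of annotated exon spanned a wide range in both compartments. The highest cytosolic member was FARSA, the catalytic subunit of phenylalanyl-tRNA synthetase, with a mean of 102 CPM per kb over the 8 libraries (range 29.8 to 189). QARS1, the glutaminyl enzyme, followed at 50.1 CPM per kb (16.8 to 121), and the cysteinyl enzyme CARS1 was lowest at 3.03 CPM per kb (1.49 to 5.07). FARSB, which encodes the partner subunit of FARSA in the same enzyme, stood at 12.7 CPM per kb (7.08 to 20.4); the ranges of these partner subunits did not overlap. Among mitochondrial enzymes the arginyl enzyme RARS2 was highest, at 10.7 CPM per kb (8.35 to 13.4), and the valyl enzyme VARS2 lowest, at 0.719 CPM per kb (0.365 to 1.44). Scaffold mRNAs ran from AIMP1 at 27.9 (16.8 to 46.9) to EEF1E1 at 64.9 CPM per kb (35.9 to 108). Exon lengths are those of all annotated transcripts joined, which understates the level of a gene with long minor isoforms.

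**Figure D1:**
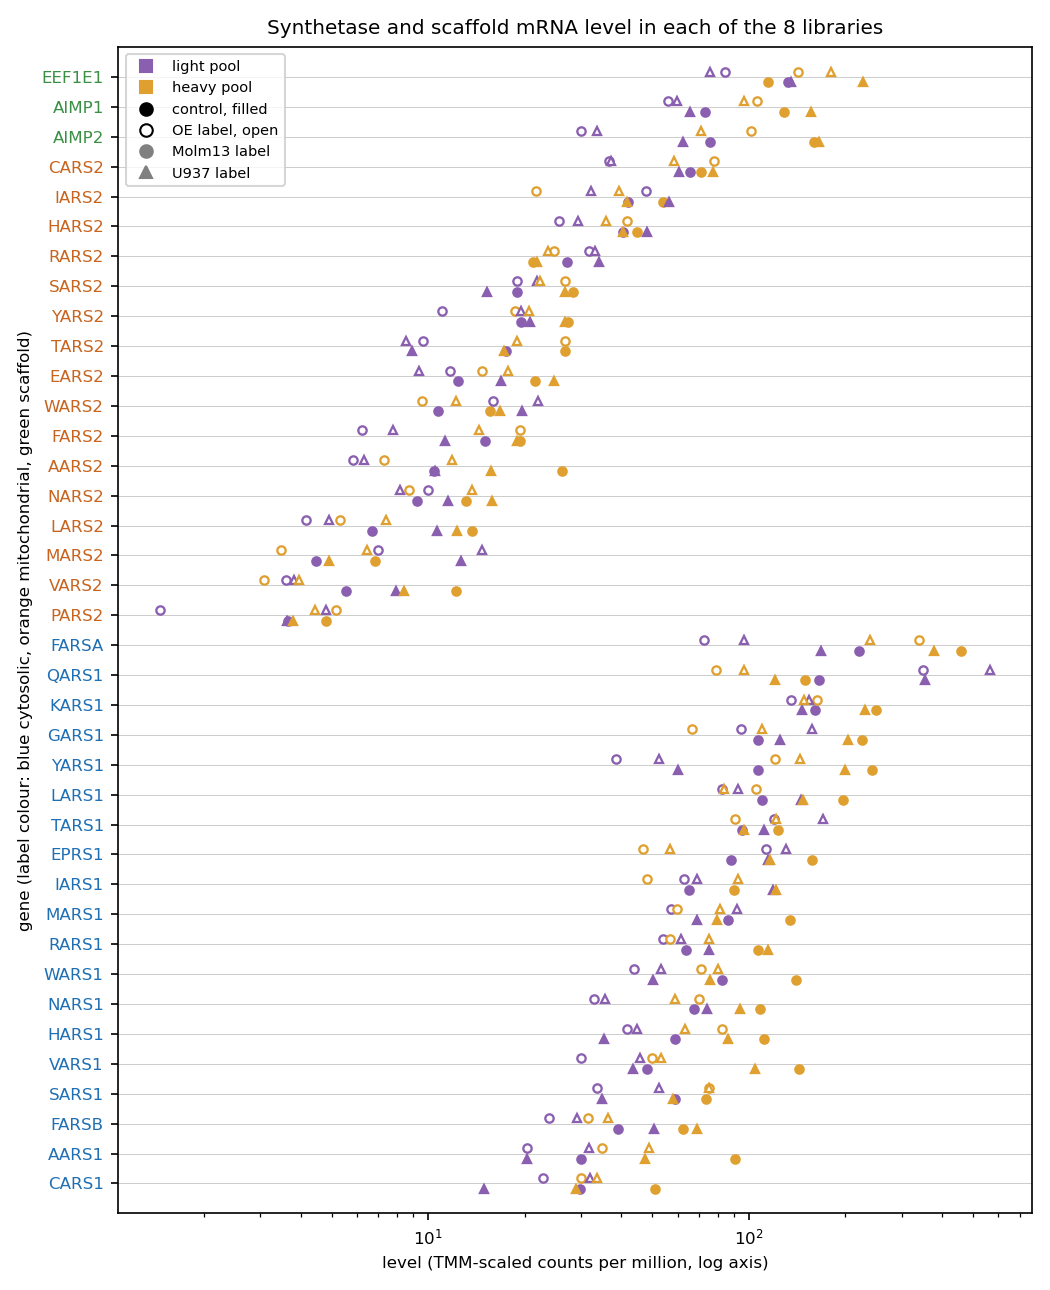
Level of each of the 38 mRNAs in the 8 libraries, in TMM-scaled CPM on a log axis; colour gives the pool, filled or open symbols the genotype label, and circles or triangles the line label. FARSA and QARS1 reach the highest levels, and the mitochondrial enzymes VARS2 and PARS2 have the lowest.

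Most synthetase mRNAs had higher values in the heavy than in the light pool, and QARS1 went the other way. Values were positive for 31 of 38 members. A negative value was found for 51.6% of all genes tested and 43.3% of those with an annotated coding sequence. In the comparison of the 4 heavy with the 4 light libraries, 12 of 38 members passed the threshold (adjusted p under 0.05, edgeR's quasi-likelihood test with Benjamini-Hochberg adjustment over all genes tested), against 28.6% of all genes tested, so the number called in either direction was near the background. Of these, 11 of 38 were higher in the heavy pool (15.8% of all genes) and 1 was lower (12.8% of all genes). By class, 6 of 19 cytosolic enzymes rose and 1 fell, 3 of 16 mitochondrial enzymes rose and 2 of 3 scaffold proteins rose. The median log2 difference, heavy minus light, was 0.46 for cytosolic and 0.44 for mitochondrial enzymes and 0.92 for scaffold proteins, beside -0.04 for all genes tested and 0.15 for the 13357 of them with an annotated coding sequence. Without the Molm13 control light library these medians were 0.45, 0.48 and 1.00, and no member changed sign. By gradient, cytosolic and mitochondrial medians were 0.77 and 0.52 in Molm13 controls, 0.62 and 0.28 in U937 controls, 0.40 and 0.34 in Molm13 OE cells and 0.29 and 0.29 in U937 OE cells. Cytosolic enzymes thus had the higher median in both control gradients, and the class medians lay close together in both OE gradients. This difference was not tested, and the Molm13 control values rest on the Molm13 control light library. Both classes include members without a call, and a median is a description of the list and not a test.

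YARS1, the tyrosyl enzyme, had light-pool levels of 107 and 38.6 CPM under the Molm13 label (control, then OE) and 60.2 and 52.6 CPM under the U937 label. Its heavy-pool levels were 242 and 121 CPM for Molm13 and 200 and 144 CPM for U937. All 4 heavy libraries lay above all 4 light ones, and the log2 difference was 1.47 (SE 0.28, adjusted p = 0.00293). FARSA stood at 221 and 72.5 CPM in the Molm13 light libraries and 169 and 97 CPM in the U937 ones. In the heavy pool it reached 460 and 341 CPM under the Molm13 label and 378 and 239 CPM under the U937 label. Again the pools did not overlap, with a log2 difference of 1.43 (SE 0.29, adjusted p = 0.00355). FARSB, its partner subunit, was at 0.46 (SE 0.22, adjusted p = 0.129), with a higher heavy than light value in each of the 4 gradients.

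AIMP2, the scaffold protein on which several enzymes of the complex assemble, was at 75.7, 30.1, 62.5 and 33.7 CPM in the light pools (Molm13 control, Molm13 OE, U937 control, U937 OE). In the heavy pools, in the same order, it was at 160, 102, 165 and 71 CPM. Each gradient was higher in its heavy pool, though the lowest heavy value fell below the highest light one, and the log2 difference was 1.33 (SE 0.25, adjusted p = 0.00258). AIMP1, which binds tRNA within the complex, also rose (0.92, adjusted p = 0.0136), from 56.0 to 73.3 CPM in the light pools to 96.6 to 156 CPM in the heavy ones. EEF1E1, the smallest scaffold protein, was at 0.65 (SE 0.28, adjusted p = 0.0965).

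A further 4 cytosolic enzymes rose in the heavy pool. The alanyl enzyme AARS1 had a log2 difference of 1.06 (SE 0.29), the valyl enzyme VARS1 0.94 (SE 0.25), the histidyl enzyme HARS1 0.91 (SE 0.24) and the asparaginyl enzyme NARS1 0.71 (SE 0.23, adjusted p = 0.0369). VARS1 is the synthetase that binds elongation factor 1 outside the multisynthetase complex. The 3 mitochondrial enzymes that rose were the threonyl TARS2 (1.04, SE 0.23, adjusted p = 0.00608), the phenylalanyl FARS2 (0.90, SE 0.24) and the alanyl AARS2 (0.83, SE 0.26, adjusted p = 0.0321). With upper-quartile scaling NARS1 and AARS2 no longer passed, at 0.53 (adjusted p = 0.11) and 0.64 (adjusted p = 0.0746). MARS2 and RARS2 then passed, and both had negative values, lower in the heavy pool, in the fit reported (-0.70 and -0.46). That scaling moved the median of all genes from -0.04 to -0.22.

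QARS1 was at 166 CPM in the Molm13 control light library and at 350, 356 and 568 CPM in the Molm13 OE, U937 control and U937 OE light libraries. Its heavy-pool levels were 150 and 79.2 CPM for Molm13 and 121 and 97 CPM for U937, control before OE. Every heavy value was below every light one. The log2 difference was -1.60 (SE 0.31, adjusted p = 0.00298), and -1.79 without the Molm13 control light library, whose own gradient differed by only -0.15. QARS1 made up 9.85%, 24.5%, 19.6% and 28.8% of all cytosolic synthetase counts in those 4 light libraries and 4.88% to 5.70% in the heavy ones. The next lowest differences were those of MARS2, the mitochondrial methionyl enzyme (-0.70, adjusted p = 0.112), and RARS2 (-0.46, adjusted p = 0.127), and RARS2 alone among other members was lower in all heavy libraries than in any light one.

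**Figure D2:**
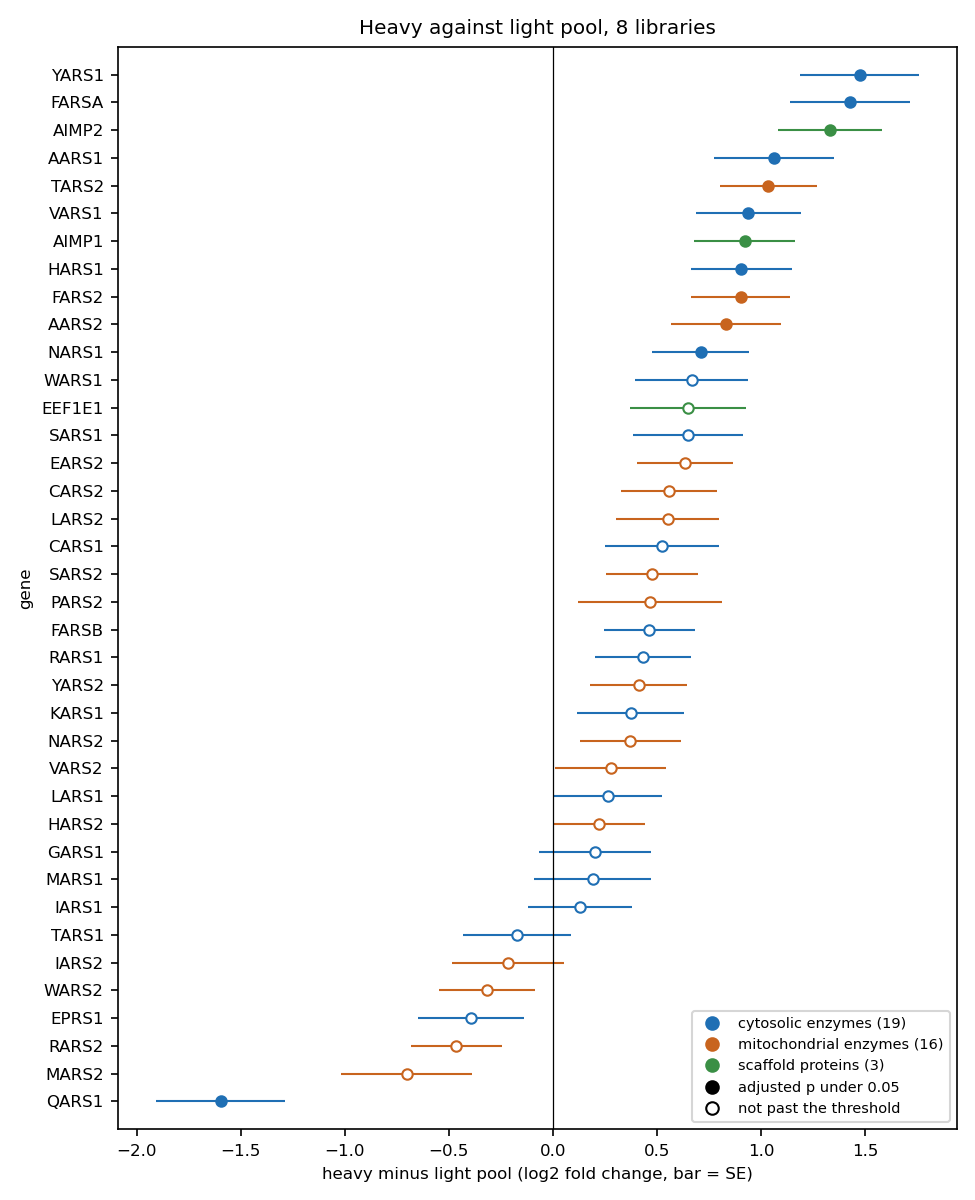
Log2 difference, heavy minus light pool, for the 38 members in the fit of 8 libraries, ordered by value; bars are standard errors, colour gives the class and filled points passed the threshold. YARS1 (1.47), FARSA (1.43) and AIMP2 (1.33) head the list and QARS1 (-1.60) stands below all others.

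Counted by overlap, 7 of 38 members (HARS1, AARS1, VARS1, YARS1, FARSA, SARS2 and AIMP1) had all heavy libraries above all light ones, against 9.12% of all genes. QARS1 and RARS2, 2 of 38, had all heavy libraries below, against 9.81%. The heavy-pool calls depended on single libraries. Without Molm13 control light 17 members passed (35.8% of all genes), without Molm13 OE light 5 (15.2%), without U937 OE heavy 6 (14.3%), without Molm13 OE heavy 7 (15%) and without U937 control heavy 8 (15%). The members' share ran from 13.2% to 44.7% in these refits and moved with that of all genes. Without Molm13 control light the members called in the fit reported all passed. They were joined by CARS1, SARS1, WARS1 and EEF1E1, higher in the heavy pool, and by MARS2, lower there (-0.93). YARS1 was then at 1.77, FARSA at 1.52 and AIMP2 at 1.40. QARS1, YARS1, FARSA, TARS2 and AIMP2 passed in each of the 8 refits that left out 1 library. Levels are shares of each library, so more of an mRNA in the heavy pool and less of other RNA there cannot be told apart, and in bulk RNA neither can more cells and more RNA per cell.

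Many mRNAs of the translation apparatus begin with a C and a run of pyrimidines, the terminal oligopyrimidine start that couples their translation to growth signals. RefSeq start sites (GRCh38.p14) were on hand for 33 of 38 members; LARS1, VARS1, YARS1, AARS2 and VARS2 had no entry. A start with C followed by at least 4 further C or T, read on the gene's strand, was found for 7.05% of the 12057 tested genes with an entry, and for 2 of 33 members (6.06%, near that background): QARS1 and a RefSeq start of WARS2. They are shown with the 4 genes that carry such a start among the 8 with an entry in the list of 11 that deliver charged tRNA to the ribosome. Each window holds 10 bases before the start and 20 from it, with the start and its pyrimidine run in capitals.
QARS1, chr3:49104738-49104767, minus strand: gcctaagtttCTTTTagtttccggtgtctc
WARS2, chr1:119140634-119140663, minus strand: cggctccgccCTTCTCaagatggcgctgca
EEF1A1, chr6:73521013-73521042, minus strand: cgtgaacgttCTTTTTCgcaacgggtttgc
EEF2, chr19:3985444-3985473, minus strand: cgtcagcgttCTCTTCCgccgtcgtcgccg
EIF2S3, chrX:24054946-24054975, plus strand: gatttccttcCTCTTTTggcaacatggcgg
EEF1B2, chr2:206159885-206159914, plus strand: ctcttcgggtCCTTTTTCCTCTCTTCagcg

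The heavy-minus-light value was -1.60 for QARS1 and -0.32 for WARS2 (adjusted p = 0.324). In the delivery list it was -2.03 for the elongation factor EEF1A1, -2.01 for the translocase EEF2, -1.98 for EIF2S3, the subunit of eIF2 that binds initiator tRNA, and -1.04 for the exchange factor EEF1B2. The 4 genes of that list without such a start were at -1.8 (EEF1G), -1.0 (XPOT), 0.65 (EIF2S1) and 1.64 (EIF5A), so low values occurred with and without it. Among members with an entry and no such start, 5 had a negative value. Over all 850 tested genes with such a start the median was -0.16 and 57.1% were negative, and over the 11207 without it the median was 0.11 and 45% were negative. The other RefSeq starts of WARS2 and EEF1B2 lack the run. A match describes these letters only, and other start sites in use in these cells were not examined.

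Genes that work next to the synthetases were spread over both pools; 15.8% of all genes tested rose there and 12.8% fell. Of 11 genes that deliver charged tRNA to the cytosolic ribosome (VARS1 among them), 3 rose in the heavy pool and 6 fell, with a median of -1.0; EEF1G, an exchange factor subunit, fell by 1.80 on the log2 scale, the tRNA exporter XPOT fell by 1.00 and EIF5A rose by 1.64. Of 20 genes for mitochondrial tRNA maturation 9 rose and 1 fell, among them the tRNA modification enzyme GTPBP3 (1.55) and HSD17B10, a subunit of mitochondrial RNase P (1.51). Of 19 mitochondrial translation factors 7 rose and 1 fell, led by the elongation factor TSFM (1.98); GATB, a subunit of the amidotransferase that completes mitochondrial glutaminyl-tRNA, rose by 0.86. Of 29 other ATF4 and amino acid response genes 4 rose and 3 fell, shares near those of all genes: ATF4 itself fell by 1.61 and the amino acid transporter subunit SLC3A2 rose by 1.15. Of 10 genes for tRNA proofreading and selenocysteine 5 rose and 2 fell, with the deacylase DTD2 lowest (-2.22).

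In the libraries labelled OE most members had lower values than in controls, and 4 of them fell past the threshold. Over both pools, 4 of 38 members were called, all lower, against 4.37% of all genes in either direction, 2.36% lower and 2.01% higher. They were FARSB among the cytosolic enzymes, LARS2 and VARS2 among the mitochondrial ones and the scaffold AIMP2. The median log2 difference, OE minus control, was -0.51 for cytosolic enzymes, -0.43 for mitochondrial enzymes and -0.39 for scaffold proteins, beside -0.05 for all genes and -0.07 for those with a coding sequence. Without Molm13 control light the class medians were -0.51, -0.42 and -0.32. Values were negative for 32 of 38 members (53.3% of all genes, 54.7% of those with a coding sequence). They were lower in each of the 4 pairs for 15 of 38 (14.4% of all genes). At an unadjusted p under 0.05, 14 were lower (12.2% of all genes) and 0 higher (9.96% of all genes).

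VARS2 was at 5.53 CPM (light) and 12.2 CPM (heavy) in Molm13 controls and at 3.60 and 3.08 CPM in Molm13 OE cells. For U937 the controls were at 7.97 and 8.4 CPM and the OE libraries at 3.83 and 3.96 CPM. All 4 OE values lay below all 4 control values, with a fitted difference of -1.20 on the log2 scale (SE 0.27, adjusted p = 0.0307). Of its exon bases 22.0% are shared with GTF2H4 on the same strand, so its counts can include reads of that gene.

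LARS2, the mitochondrial leucyl enzyme, was at 6.70 CPM (light) and 13.7 CPM (heavy) in Molm13 controls and at 10.6 and 12.3 CPM in U937 controls. With the OE label it was at 4.16 and 5.32 CPM for Molm13 and 4.90 and 7.37 CPM for U937. The U937 OE heavy value exceeded the Molm13 control light value, the sole overlap between the genotype labels. Its log2 fold change was -0.99 (SE 0.25, adjusted p = 0.0436).

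FARSB was at 39.1 and 62.5 CPM in Molm13 controls and 50.5 and 68.9 CPM in U937 controls, light before heavy. Under OE it was at 23.9 and 31.6 CPM for Molm13 and 29.2 and 36.5 CPM for U937, below every control value. Its fitted log2 difference was -0.85 (SE 0.22, adjusted p = 0.0466), and the 4 pairs ranged from -0.98 to -0.71. FARSA had nearly the same fold change, -0.86, with a wider error (SE 0.28, adjusted p = 0.0971), and was lower in all 4 pairs.

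For AIMP2 each OE value lay below its control in the same pool and line, with pair differences of -1.33 and -0.66 (Molm13 light and heavy) and -0.89 and -1.22 (U937). The fitted difference was -1.02 on the log2 scale (SE 0.25, adjusted p = 0.0399). Of its exon bases 28.9% are shared with EIF2AK1 on the opposite strand, and the kit does not mark strand; EIF2AK1 itself was at -0.44 (adjusted p = 0.338). The other scaffolds were at -0.38 (AIMP1) and -0.39 (EEF1E1), with adjusted p-values of 0.388 and 0.436.

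Members just short of the threshold were NARS1 (-0.85, adjusted p = 0.0569), AARS2 (-0.95, adjusted p = 0.0606) and VARS1 (-0.77, adjusted p = 0.0936). NARS1 and AARS2 were lower in 4 of 4 pairs, VARS1 in 3 of 4. At the other end, the threonyl enzyme TARS1 (0.20), RARS2 (0.13) and QARS1 (0.09, and -0.09 without Molm13 control light) had the highest values, none near the threshold. Summed over the class, cytosolic synthetases took 2918 and 2375 CPM in the control heavy libraries (Molm13, U937) and 1624.5 and 1701 CPM in the OE heavy ones. In the light pools the totals were 1684.5 and 1817 CPM in controls and 1430 and 1971 CPM under OE, with no common direction. Leaving QARS1 out of the sum, they were 1518.5 and 1461 CPM in controls and 1081 and 1403 CPM under OE, lower under OE in both pairs. Mitochondrial totals were lower under OE in all 4 pairs, at 309 against 247 and 407 against 315 CPM (Molm13 light, heavy) and 349 against 264 and 373 against 311 CPM (U937).

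Further enzymes passed neither comparison. Those for lysine (KARS1), leucine (LARS1), methionine (MARS1), arginine (RARS1), serine (SARS1) and tryptophan (WARS1) in the cytosol had heavy-minus-light values from 0.19 (MARS1) to 0.67 (WARS1, adjusted p = 0.0824). Their OE values over both pools ran from -0.71 (LARS1, adjusted p = 0.132) to 0.05 (SARS1), and LARS1 and RARS1 were lower in 4 of 4 pairs. CARS1, EPRS1, GARS1, IARS1 and TARS1 in the cytosol also passed neither comparison. The heavy-minus-light values of these enzymes were 0.52, -0.39, 0.20, 0.13 and -0.17. The mitochondrial enzymes for cysteine (CARS2), glutamate (EARS2), isoleucine (IARS2), asparagine (NARS2), proline (PARS2), serine (SARS2) and tyrosine (YARS2) had heavy-minus-light values from -0.22 (IARS2) to 0.64 (EARS2, adjusted p = 0.0549). Over both pools their OE values ran from -0.48 (EARS2, adjusted p = 0.241) to 0.05 (SARS2), and EARS2 and YARS2 were lower in 4 of 4 pairs.

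These OE calls treat the pools of a gradient as separate libraries. With the pools of each gradient summed, edgeR's quasi-likelihood test called 0 of 38 members and 0 genes in all (11 members at an unadjusted p under 0.05), and without the line label as a replicate block it called 0. Refits that left out 1 library at a time kept 1 library in a group. Calls changed with the library left out, among members and over all genes, and none of the 4 calls was kept in every refit. All 4 called members kept a negative value in all 8 refits. Their log2 differences ran from -0.91 to -0.82 (FARSB), -1.155 to -0.83 (LARS2), -1.425 to -0.98 (VARS2) and -1.15 to -0.91 (AIMP2).

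**Figure D3:**
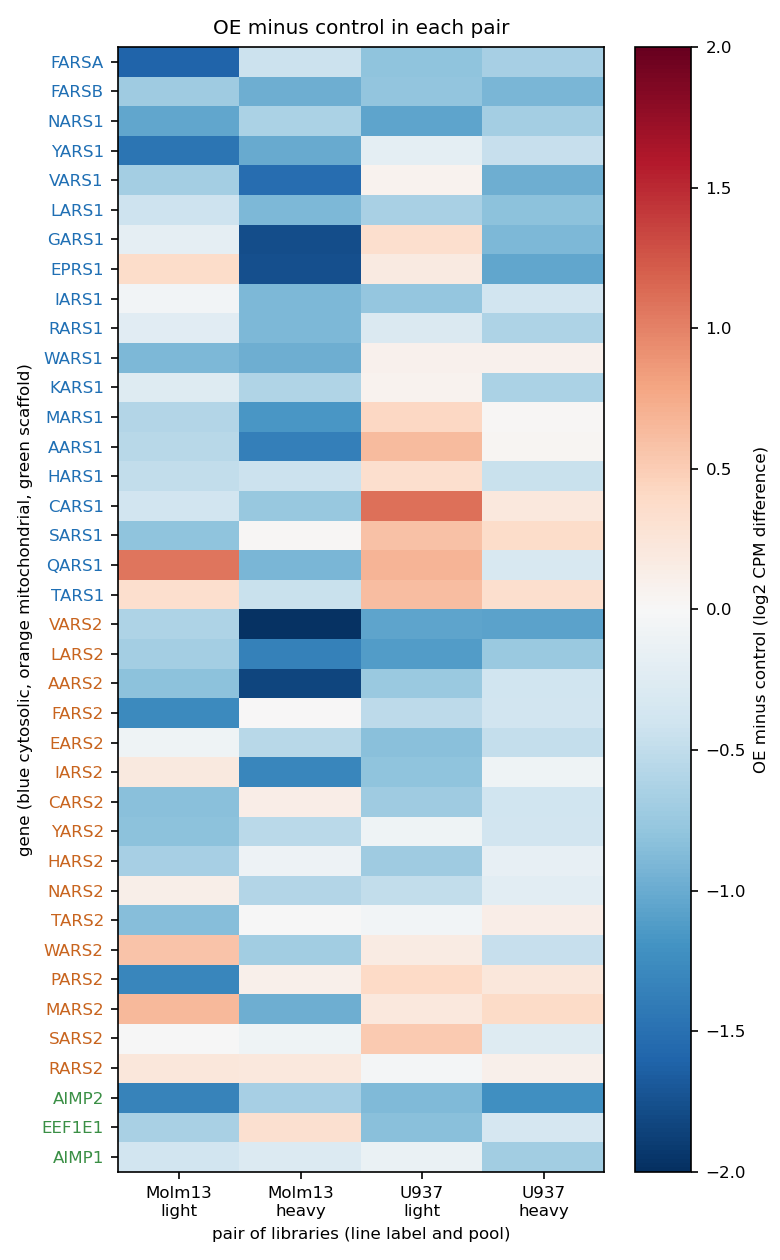
Difference in log2 CPM, OE minus control, for each member (rows, grouped by class and ordered by the fitted value) in each of the 4 pairs of libraries (columns); blue is lower in OE. FARSB, LARS2, VARS2 and AIMP2 are blue in all 4 columns, while several cytosolic enzymes are red in the U937 light pair.

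Within the heavy pool, where mRNAs carry the most ribosomes, cytosolic enzymes had the lower OE median. No member passed the test (0 of 38, beside 0.00412% of all genes), with 10 lower at an unadjusted p under 0.05 (6.72% of all genes). DESeq2 called 4 (10.5%, beside 5% of the genes it gave an adjusted p, 1003 of 24289 tested) and limma voom 0. Medians were -0.66 for cytosolic and -0.40 for mitochondrial enzymes (-0.64 and -0.37 without Molm13 control light), beside -0.03 for all genes. In this pool 34 of 38 values were negative (51.5% of all genes, 50.2% of those with a coding sequence). Both OE libraries lay below both controls for 22 of 38 members (24.3% of all genes), of which 12 were cytosolic, 8 mitochondrial and 2 scaffold.

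The largest heavy-pool differences were those of VARS2 (-1.56, SE 0.39, adjusted p = 0.0974) and EPRS1 (-1.42, SE 0.37, adjusted p = 0.107). EPRS1 encodes the glutamyl-prolyl enzyme, which joins these activities in a protein that is the longest of the 38. Its heavy-pool levels were 158 and 116 CPM in controls (Molm13, U937) and 46.7 and 56.8 CPM in OE, while its light-pool levels were 88.1 and 115 CPM in controls and 113 and 130 CPM in OE. GARS1, the glycyl enzyme, showed the same arrangement in part, at 226 and 204 CPM in control heavy libraries against 66.4 and 110 CPM in OE ones, a log2 difference of -1.34 (adjusted p = 0.134). VARS1 was at 144 and 104 CPM in control heavy libraries and 50.0 and 53.1 CPM in OE ones (-1.27, adjusted p = 0.13). Without the Molm13 control light library, which is no part of this contrast but of its error, 5 members passed (VARS2, EPRS1, GARS1, VARS1 and AARS2; 13.2%, beside 6.99% of all genes). Without U937 control light these and FARSB passed (15.8%, beside 7% of all genes), and without any other library 0. Calls thus rose across the whole table in these 2 refits.

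In the light pool 0 of 38 members and 0 genes in all passed edgeR's test, with 9 members lower at an unadjusted p under 0.05 (9.65% of all genes). DESeq2 called 2, FARSA and AIMP2 (5.26%, beside 5.55% of the genes it gave an adjusted p, 930 of 24289 tested), and limma voom 0. Medians were -0.10 for cytosolic and -0.44 for mitochondrial enzymes and -0.05 for all genes. The cytosolic median had no stable sign: it was -0.50 in the Molm13 pair and 0.08 in the U937 pair, 0.07 under upper-quartile scaling (all genes 0.11), and from -0.46 (without U937 OE light) to 0.08 (without Molm13 OE light) in refits without 1 library. Without Molm13 control light the medians were -0.03 and -0.42, 5 of 38 members changed sign and 0 passed. FARSA was at -1.17 (SE 0.41, adjusted p = 0.213), AIMP2 at -1.10 (SE 0.35, adjusted p = 0.191) and NARS1 at -1.05 (SE 0.33, adjusted p = 0.19). The highest light-pool value was that of QARS1 (0.84, SE 0.43, adjusted p = 0.377), which was 0.46 without Molm13 control light. Values were negative for 28 of 38 members (52.9% of all genes, 57.3% of those with a coding sequence). Both OE libraries lay below both controls for 16 of 38 members (23.1% of all genes).

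**Figure D4:**
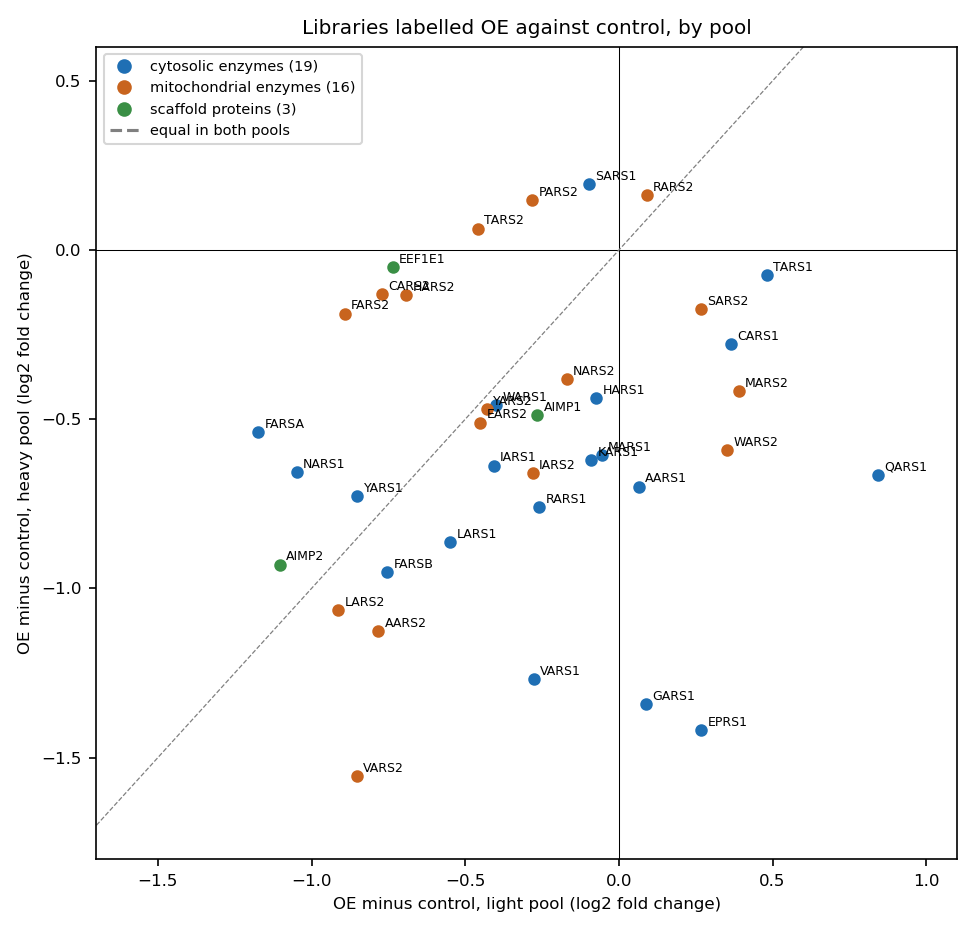
Log2 fold change, OE minus control, in the light pool (horizontal axis) against the heavy pool (vertical axis) for the 38 members, coloured by class; the dashed line marks equal change. EPRS1, GARS1 and QARS1 lie far below the line, FARSA, FARS2 and NARS1 above it.

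The difference between the pools was tested as an interaction. No member passed (0 of 38, and 0 genes of all tested; DESeq2 and limma voom also called 0 members), and 3 were lower at an unadjusted p under 0.05 (2.08% of all genes): EPRS1 (-1.69, SE 0.51), QARS1 (-1.51, SE 0.60) and GARS1 (-1.43, SE 0.54), each with an adjusted p of 0.791. The median was -0.50 for cytosolic enzymes, -0.10 for mitochondrial enzymes and 0.17 for scaffold proteins. It was 0.08 for all genes and 0.16 for those with a coding sequence. Of the 38 values 26 were negative (46.1% of all genes, 41.3% of those with a coding sequence). EPRS1, QARS1 and WARS2 were higher in the light and lower in the heavy pool of OE libraries under both line labels, 3 of 38 members (7.89%) beside 4.36% of all genes. Leaving out Molm13 control heavy moved the cytosolic median to -0.12 and the mitochondrial one to 0.14; leaving out U937 control heavy moved them to -0.68 and -0.31. Without Molm13 control light the class medians were -0.54, -0.01 and 0.09, with all genes at -0.01, EPRS1, QARS1 and GARS1 were at -1.50, -1.10 and -1.54, and 0 members passed. Upper-quartile scaling put the median of all genes at -0.09. Without U937 control light EPRS1 and QARS1 passed (5.26%, beside 5.1% of all genes).

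Coding length ran with this difference. The members range from EEF1E1 with 174 codons to EPRS1 with 1512. Across the 38 members Spearman's rho between codons of the longest coding sequence and the interaction value was -0.571, beside -0.323 across 13357 tested genes with a coding length. For the OE difference in the heavy pool alone rho was -0.533 across members and -0.157 across all, in the light pool 0.172 and 0.164. For heavy against light it was -0.323 and -0.101, and the 19 shorter members (174 to 578 codons) had a median heavy-minus-light value of 0.65 against 0.28 for the 19 longer ones (589 to 1512). By class the heavy-against-light rho was -0.495 for the 19 cytosolic and 0.004 for the 16 mitochondrial enzymes, so it was close to 0 in the mitochondrial class. The interaction rho was -0.673 and -0.272 for the same classes. These are descriptions across genes that share the same 8 libraries, with no test, and genes are not independent replicates.

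**Figure D5:**
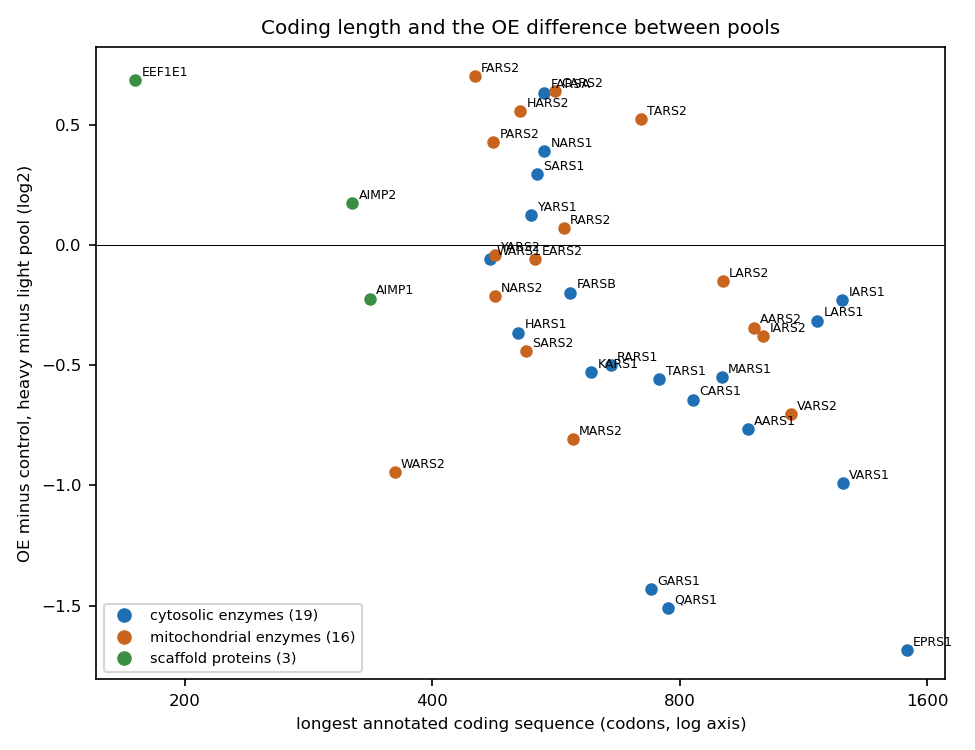
Codons of the longest annotated coding sequence (log axis) against the OE minus control difference, heavy minus light pool (log2), for the 38 members, coloured by class. EPRS1, the longest at 1512 codons, is lowest at -1.69, and EEF1E1, the shortest at 174 codons, is at 0.69.

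ATF4 binds the C/EBP-ATF response element, searched here as TGATGNAA on both strands from 250 bases before to 50 bases after each RefSeq start. It was found for 7 of 16 cytosolic enzymes with an entry, 1 of 14 mitochondrial enzymes and 0 of 3 scaffold proteins, against 2.86% of the 12057 tested genes. All 7 cytosolic genes are among the 12 listed as ATF4 targets from textbook knowledge. Each 30-base window shows the element in capitals on the gene's strand, and the elements of MARS1, CARS1 and TARS1 lie within 4 bases of the start.
TARS1, chr5:33440956-33440985, plus strand: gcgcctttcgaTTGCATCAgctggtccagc
GARS1, chr7:30594834-30594863, plus strand: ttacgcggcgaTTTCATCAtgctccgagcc
IARS1, chr9:92293692-92293721, minus strand: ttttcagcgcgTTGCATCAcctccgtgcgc
CARS1, chr11:3057407-3057436, minus strand: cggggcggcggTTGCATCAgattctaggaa
MARS1, chr12:57488053-57488082, plus strand: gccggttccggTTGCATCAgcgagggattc
AARS1, chr16:70289675-70289704, minus strand: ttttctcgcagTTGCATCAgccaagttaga
NARS1, chr18:57621804-57621833, minus strand: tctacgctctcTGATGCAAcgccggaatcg
YARS2, chr12:32756076-32756105, minus strand: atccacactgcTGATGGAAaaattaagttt

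The 12 cytosolic genes listed as ATF4 targets and the 7 others had like OE medians over both pools, -0.48 and -0.51, with 0 of 12 and 1 of 7 (FARSB) called. Cytosolic members with the element had a median of -0.33 (7 genes) and those without -0.43 (9 genes). By line label, a difference that was not tested, the listed targets had medians of -0.49 and -0.94 in the Molm13 light and heavy pairs and 0.26 and -0.18 in the U937 ones. The 7 others were at -0.50 and -0.90 for Molm13 and 0.07 and -0.63 for U937. Of 29 other ATF4 and amino acid response genes 2 fell over both pools (2.36% of all genes) and 0 rose, with a median of -0.34: the serine synthesis enzyme PSAT1 (-1.30, adjusted p = 0.0177) and the arginine transporter SLC7A1 (-0.96, adjusted p = 0.0389). ATF4 mRNA was at -0.34 (adjusted p = 0.532) and asparagine synthetase ASNS at -0.88 (adjusted p = 0.0839). The highest value of the list was that of DDIT4, an inhibitor of mTORC1 signalling, at 1.40 (adjusted p = 0.0613). At an unadjusted p under 0.05, 4 of these 29 genes were higher (DDIT4, NUPR1, ATF3 and VLDLR) and 7 lower. GCN1, which helps the kinase GCN2 sense uncharged tRNA, fell by 1.27 on the log2 scale (adjusted p = 0.0149), and was the sole call among 8 genes of tRNA sensing and eIF2 control.

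Other lists around the synthetases held 0 or 1 OE call each, with 2.36% of all genes called lower. Among mitochondrial tRNA maturation genes 1 of 20 fell, the tRNA-end nuclease ELAC2 (-1.11, adjusted p = 0.0234), and the median was -0.49. Among mitochondrial translation factors 1 of 19 fell, the activator of cytochrome oxidase translation TACO1 (-0.95, adjusted p = 0.0351), with a median of -0.35. The genes that deliver charged tRNA had 0 of 11 called and a median of 0.10, with 3 lower at an unadjusted p under 0.05. The 10 measured members of the multisynthetase complex had a median of -0.45 with AIMP2 the sole call; in the heavy pool all 10 were negative (median -0.65) and in the light pool 8 of 10 (median -0.26).

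No member passed the test between the line labels. In edgeR's test 0 of 38 members and 0% of all genes passed, with 1 higher under Molm13 and 2 lower at an unadjusted p under 0.05 (5.66% and 6.12% of all genes); DESeq2 and limma voom called 0 members. The 3 were TARS2 (0.57), MARS2 (-0.76) and IARS1 (-0.59), with adjusted p-values of 0.379, 0.393 and 0.393. Class medians, Molm13 minus U937, were 0.04 (cytosolic) and -0.10 (mitochondrial), and -0.09 and -0.02 without Molm13 control light. IARS1, the isoleucyl enzyme, was at 65.2, 90.2, 62.8 and 48.2 CPM in the Molm13 libraries (light and heavy control, then light and heavy OE) and at 119, 122, 69.1 and 92.8 CPM in the U937 ones, so each Molm13 value lay below its U937 counterpart.

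HARS1 and HARS2 lie head to head on chromosome 5 (140673904 to 140691862, minus strand, and 140691426 to 140699318, plus strand, GRCh38) and share 437 exon bases at their common promoter. They did not move alike by value: HARS1 rose in the heavy pool (0.91, adjusted p = 0.0146) and HARS2 was at 0.22 (SE 0.22, adjusted p = 0.486); whether the members of the pair differ was not tested. HARS1 was at 59.0, 41.8, 35.3 and 44.7 CPM in the light and 112, 82.5, 86.0 and 63.3 CPM in the heavy libraries (Molm13 control, Molm13 OE, U937 control, U937 OE). HARS2 was at 40.5, 25.6, 48.3 and 29.4 CPM in the light and 44.8, 41.8, 40.4 and 35.9 CPM in the heavy ones, with both OE light values below both control light values. In all, 22 of 38 members share exon bases with another annotated gene, 8 of them over 10% of their exon length, of which SARS2 has the largest share at 57.0%. Reads in such stretches were counted for both genes, as the antisense pair TALAM1 and MALAT1 shows, with TALAM1 at 99.95% to 99.98% of the MALAT1 count in every library.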

How the data were processed

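The values the authors deposited are unnormalized read counts per Ensembl gene ID, in 1 table of 8 libraries; 42179 IDs, and 17214 of the 24289 tested, had a symbol. Per the labels' protocols a Smart-seq kit was used. GRCh38, STAR, featureCounts and cutadapt are named per the submitters' processing notes; the sources used here give no tool version, annotation release or strand setting. Exons and coding lengths were taken from GENCODE release 29, and starts from RefSeq.

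The test was edgeR's quasi-likelihood test (version 4.0.16, in R 4.3.3; TMM, filterByExpr, group plus line label, 3 residual degrees of freedom), with Benjamini-Hochberg adjustment over all genes tested and a threshold of 0.05. The biological coefficient of variation was 0.359. CPM levels were computed here, and pair differences use log2 CPM with a prior count of 2. Libraries are paired by cell line label; deviations from group means correlated at 0.0169 to 0.338 between groups. Nothing in the labels describes separate cultures, so p-values cover only the spread among these libraries, which may be technical. On simulated counts, 2-fold changes were recovered for 33.9% of genes over both OE pools, 13.8% in the heavy pool and 39.4% between pools (4-fold: 100%, 81.3% and 98.9%). The simulated libraries were independent, with no pool, line or gradient effect beside the planted change. Changes were planted only in genes above a minimum mean level. These percentages therefore do not cover pools paired within a gradient or a library that stands apart. Alternatives used DESeq2 1.42.0, limma 3.58.1, other scalings and filters, summed gradients and left-out libraries.

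Members and lists were chosen with earlier results of these data known. Named members were those past the threshold, up to 3 per class and comparison by smallest p, and those of highest and lowest level per length; up to 4 were named per other list, and further members were named after their values were seen.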

Additional observations from a re-analysis of the deposited data

Results flagged for a closer look

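In 4 cytosolic enzymes the difference between OE and control libraries ran in opposite directions under the line labels, lower in both pools for Molm13 and higher in both pools for U937. These opposite directions were not tested. The share of all genes with such a pattern was not counted, so the number cannot be set against a background. Each Molm13 light pair includes the Molm13 control light library, which stood apart in its MT-RNR2 share. The mean log2 difference under the Molm13 label minus that under the U937 label was -1.31 for the alanyl enzyme AARS1, whose pairs were at -0.56 and -1.38 for Molm13 (light, heavy) and 0.64 and 0.04 for U937. It was -1.23 for the cysteinyl enzyme CARS1, with pairs at -0.38 and -0.76 for Molm13 and 1.1 and 0.21 for U937. For the methionyl enzyme MARS1 it was -1.1, and for the tryptophanyl enzyme WARS1 -1.03, where the U937 pairs were at 0.08 and 0.09. Each line label holds 1 gradient per genotype label, so a difference between lines and a difference between gradients cannot be told apart.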

How the results depend on the processing

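Over both OE pools, 4 members were called, against 4.37% of all genes in the fit reported. Upper-quartile scaling called 2 (5.08% of all genes). DESeq2 called 9 (12.8% of the genes it gave an adjusted p, 2679 of 24289 tested). Limma voom with a random effect for the gradient called 10 (13.3% of all genes, consensus correlation -0.258). Summed gradients gave 0, and edgeR's test with no replicate block gave 0 (0.478% of all genes, smallest adjusted p = 0.066). The mitochondrial median over both OE pools (-0.43) was -0.42 with RLE scaling, with DESeq2 and with no replicate block. It was -0.35 with upper-quartile scaling and with summed gradients, and -0.47 with no filter on low counts. In the heavy pool DESeq2 called 4 (5% of the genes it gave an adjusted p) and the unfiltered fit called 4 (2.33% of all genes). In the light pool DESeq2 called 2 (5.55% of the genes it gave an adjusted p). Upper-quartile scaling moved the light-pool mitochondrial median to -0.28, the cytosolic interaction median to -0.67 (-0.63 with no filter) and the heavy-against-light medians to 0.28 (cytosolic) and 0.26 (mitochondrial). Signs were followed for the members called over both pools or between pools, and for those of smallest p in each other comparison. None of these changed sign under these scalings, filters, tools and blocks. Signs of the other members were not followed. The light-pool cytosolic median turned to 0.07 with upper-quartile scaling and the cytosolic median between line labels (0.04) to -0.05 with summed gradients. The median of all genes turned to 0.02 over both pools, 0.11 in the light pool and -0.09 for the interaction with upper-quartile scaling, to 0.03 over both pools with summed gradients and to -0.08 for the interaction with no filter. Between pools the same 12 members passed with and with no replicate block.

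Leaving out 1 library in turn gave 0 to 9 calls over both OE pools, 0 to 6 in the heavy pool, 0 to 2 in the light pool, 0 to 2 for the interaction, 5 to 17 between pools and 0 to 0 between line labels. Mitochondrial medians ranged from -0.45 to -0.34 over both pools and from -0.78 to -0.41 in the light pool, the cytosolic light-pool median from -0.46 to 0.08, and the interaction medians from -0.68 to -0.12 (cytosolic) and -0.31 to 0.14 (mitochondrial). Lowest counts were 70, so counting error was small beside the spread of 2 libraries per group.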
